A study of Mus musculus with 6 samples.

Results

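Guanylate-binding proteins (GBPs) are a family of large GTPases encoded by the Gbp genes. Cells make little of them at rest and much more after interferon, most of all after interferon gamma, whose signal runs from its receptor through the kinases JAK1 and JAK2. GBPs gather on the membranes of intracellular bacteria and parasites and on the vacuoles that hold them, break these open together with the smaller p47 immunity-related GTPases, and feed into inflammasomes, the complexes that activate inflammatory caspases. In the liver they can be made by hepatocytes as well as by Kupffer cells, the resident macrophages. The members described here are the 10 genes Gbp2 to Gbp11, taken by symbol from a table of 40803 mouse genes.

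The RNA came from livers of 6 male C57BL/6 mice on a normal diet, 1 library a mouse, with 3 mice in each of 2 groups. All mice received a recombinant adeno-associated virus (rAAV8) by tail vein at about 6 weeks of age and were examined 4 weeks later. The virus of the rAAV8-sh-Hnf1aos1 group, called knockdown below, carried a short hairpin against Hnf1aos1, a long non-coding RNA. That of the rAAV8-sh-scramble group carried a scrambled hairpin, and both hairpins were driven by the U6 promoter beside an EGFP reporter. Each group was thus a single hairpin, no mice without virus are among the libraries, and an effect of the hairpin sequence cannot be told apart from that of the target. The comparison asks how the Gbp genes differed between the groups, and p-values weigh that difference against the spread between mice.

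The libraries held 14704746 to 19462398 counts in genes. Hnf1aos1 had normalized counts of 512.0, 490.6 and 620.3 in scramble replicates 1 to 3 and of 278.5, 258.5 and 432.9 in knockdown replicates 1 to 3. The groups did not overlap, and the fitted log2 fold change of Hnf1aos1 was -0.74 (SE 0.20), which did not pass the test (adjusted p = 0.0625, edgeR; 0.00346 in DESeq2). Without knockdown replicate 3, the highest of its group, it was -1.01 (adjusted p = 0.000261, edgeR). This was the only fit with 1 library left out that called Hnf1aos1. The others gave log2 fold changes of -0.81 to -0.60 (adjusted p = 0.113 to 0.218, edgeR). Spike-in RNA made up 1.38% to 1.52% of the counts in scramble and 1.18% to 1.24% in knockdown libraries. Over all genes, scaling to it moved the median log2 fold change from -0.00040 to 0.20, and the values below are relative to the former.

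Gbp expression was higher in knockdown liver, but not across the whole family. Gbp3, Gbp7, Gbp9 and Gbp10 rose, by fitted factors of 2.73 (Gbp7) to 3.59 (Gbp10). Gbp6 and Gbp11 were higher by similar factors, 3.14 and 3.87, without passing the test. Gbp2, Gbp5 and Gbp8 were higher by 1.32 to 1.54 times and were not called, and Gbp4 was level, with a fitted factor of 0.947. All 10 members were past the filter on low counts that left 16327 genes for testing. Of these members 4 were called higher at an adjusted p under 0.05 in edgeR's quasi-likelihood test, against a background of 3.09% of all genes tested. At an unadjusted p under 0.05, 6 were higher, against 12% of genes tested. In edgeR 0 were called lower, against 3.23% of genes, and 0 were lower at an unadjusted p under 0.05 or in DESeq2. In 7 of 10 members every knockdown library was above every scramble library, a pattern seen in 15.2% of genes tested, and in 0 members below, against 13.7%. The median log2 fold change of the members was 1.49.

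**Figure D1:**
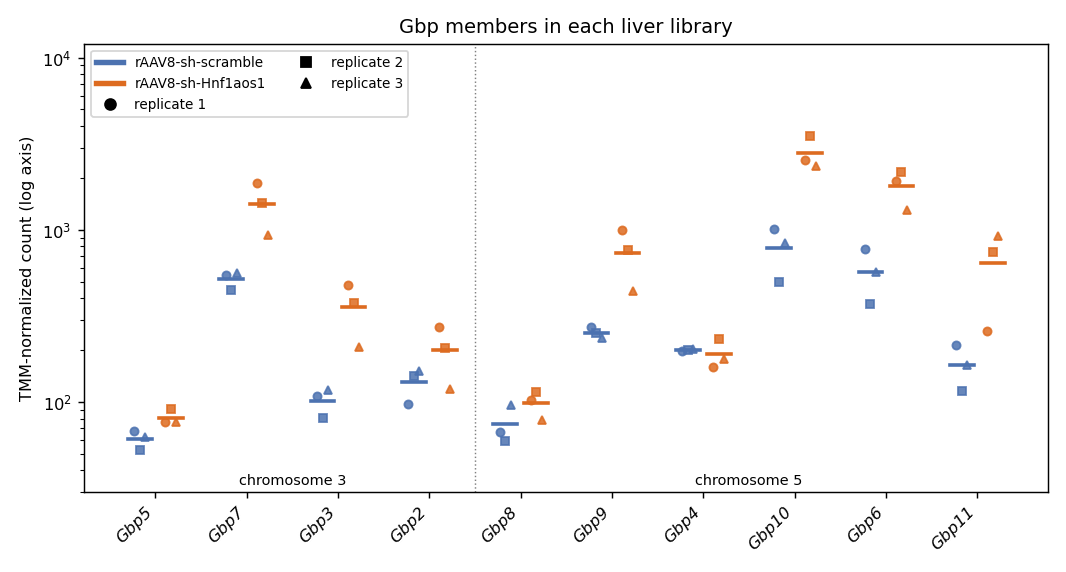
Normalized counts (log axis) of the 10 Gbp members in each library, in gene order along chromosomes 3 and 5. Marker shape gives the replicate number, colour the group and bars the mean of the 3 libraries of a group. Knockdown points lie wholly above scramble points for Gbp3, Gbp5, Gbp6, Gbp7, Gbp9, Gbp10 and Gbp11, and the groups overlap for Gbp2, Gbp4 and Gbp8.

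The genes lie in 2 clusters, whose positions are given on GRCm38 from GENCODE. The cluster on chromosome 3, read on the plus strand, runs in the order Gbp5 (142493978 to 142522344), Gbp7 (142530342 to 142550149), Gbp3 (142560026 to 142573209) and Gbp2 (142620602 to 142638008). Gbp2b, which is not a member, lies between Gbp3 and Gbp2 and had log2 fold change -0.41 (SE 0.30, adjusted p = 0.441, edgeR), with overlapping groups. Coding sequences of the 4 members are 67.0% to 79.6% identical to each other, with Gbp3 and Gbp7 the closest pair, and no stretch of 150 bases, the read length, is shared with another gene of the table.

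Interferon acts on such genes through short promoter elements. The interferon-stimulated response element (ISRE), bound by IRF proteins, has the letters GAAANNGAAA, which read TTTCNNTTTC on the other strand. The gamma-activated site (GAS) has the letters TTCNNNGAA. RefSeq promoters on GRCm38.p6 were at hand for 4 of the 10 members, all on chromosome 3, and are shown because 2 of them belong to genes that rose and 2 to genes that did not pass. The 200 bases before each start were searched on both strands. The RefSeq start used for Gbp5, 142496934, lies inside the gene as GENCODE places it (142493978 to 142522344). Matches are in capitals, with up to 40 bases before the first and 10 after the last.
Gbp7, chr3:142530190-142530302, plus strand: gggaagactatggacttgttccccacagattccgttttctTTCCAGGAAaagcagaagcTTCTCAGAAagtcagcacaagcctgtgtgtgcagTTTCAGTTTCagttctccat
Gbp3, chr3:142559959-142560024, plus strand: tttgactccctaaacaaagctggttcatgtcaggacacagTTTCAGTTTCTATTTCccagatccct
Gbp5, chr3:142496734-142496900, plus strand: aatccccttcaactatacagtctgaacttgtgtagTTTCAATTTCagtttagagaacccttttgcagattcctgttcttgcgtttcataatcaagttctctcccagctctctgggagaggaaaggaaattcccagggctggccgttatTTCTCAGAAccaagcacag
Gbp2, chr3:142620564-142620623, plus strand: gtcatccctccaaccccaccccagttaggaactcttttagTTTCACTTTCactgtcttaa
Each of the 4 holds ISRE letters, and Gbp3 holds 2 matches that overlap. The Gbp7 window also holds 2 GAS matches and the Gbp5 window 1. A second annotated start of Gbp3 has neither. Over the 32851 promoters of the table, 2.27% hold ISRE letters in the same window, 5.49% GAS letters and 0.204% both. A match is a description of the sequence and not a binding site shown by these data, and genes with matches were found on both sides of the test.

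Gbp7, which helps assemble antimicrobial oxidase and autophagy complexes in macrophages, had normalized counts of 545.8, 444.5 and 560.9 in scramble and of 1868, 1428 and 936.5 in knockdown replicates 1 to 3. The groups were apart, and knockdown libraries spread from 936.5 to 1868. The mean of Gbp7 rose from 517 ± 63.3 to 1411 ± 466 (SD, n = 3 each), with a log2 fold change of 1.45 (SE 0.26, adjusted p = 0.0321, edgeR).

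Gbp3 had normalized counts of 107.7, 80.13 and 116.6 in scramble and of 474.9, 377.3 and 208.3 in knockdown. Its knockdown libraries stood in the same order as those of Gbp7, replicate 1 highest and replicate 3 lowest. The mean rose from 101 ± 19.0 to 353 ± 135 (SD, n = 3 each), a log2 fold change of 1.80 (SE 0.32, adjusted p = 0.0294, edgeR).

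Gbp2 and Gbp5 end in a CaaX motif, which is prenylated and anchors the proteins in membranes. Gbp2 is among the members best known for coating parasite vacuoles. It had normalized counts of 97.47, 140.5 and 150.7 in scramble and of 271.8, 206.2 and 118.7 in knockdown. Knockdown replicates 1 and 2 were above all scramble libraries, while replicate 3 lay below 2 of them. The log2 fold change of Gbp2 was 0.62 (SE 0.31, adjusted p = 0.278, edgeR).

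Gbp5, known for its part in activating the NLRP3 inflammasome, had normalized counts of 67.72, 52.69 and 62.69 in scramble and of 76.29, 90.28 and 76.08 in knockdown. The groups did not overlap, but the gap was narrow, from 67.72 to 76.08. The log2 fold change of Gbp5 was 0.40 (SE 0.19, adjusted p = 0.230, edgeR).

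The cluster on chromosome 5 is read on the minus strand. Its positions are 105014150 to 105139540 for Gbp8, 105077630 to 105139539 for Gbp9 and 105115767 to 105139586 for Gbp4, so these 3 annotated genes overlap on the same strand. Gbp10 (105215699 to 105239533), Gbp6 (105270702 to 105293698) and Gbp11 (105323042 to 105346472) follow without overlap. Gbp11 is annotated as a transcribed pseudogene by RefSeq and as a polymorphic pseudogene by GENCODE, and the other 9 members as protein-coding. All 6 are close copies, with coding sequences 90.0% to 98.4% identical. Stretches of 150 bases shared with another gene of the table numbered 0 for Gbp8 and Gbp9, as on chromosome 3, and 2 each for Gbp4 and Gbp11.

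Gbp6 and Gbp10 are the closest pair, differing at 30 of 1833 aligned coding bases. Of the distinct 150-base stretches in their transcripts, 1852 were common to both, 29.0% of those of Gbp6 and 49.7% of those of Gbp10. Single reads from these stretches cannot be assigned to 1 of the genes, and counting used uniquely mapped reads. Their differences are not spread evenly. The 60 coding bases with the most differences between the pair, bases 1567 to 1626, are shown from GENCODE transcripts with Gbp11, with every position not shared by all 3 in capitals.
Gbp6: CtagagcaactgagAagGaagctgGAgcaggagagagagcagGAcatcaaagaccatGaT
Gbp10: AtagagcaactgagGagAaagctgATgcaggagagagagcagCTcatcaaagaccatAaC
Gbp11: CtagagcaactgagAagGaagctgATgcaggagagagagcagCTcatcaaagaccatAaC
Gbp6 and Gbp10 differ at 9 of these 60 bases, and Gbp11 carries some letters of each.

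Gbp10 had normalized counts of 1003, 495.0 and 840.3 in scramble and of 2550, 3515 and 2349 in knockdown. The lowest knockdown library, 2349, stood well above the highest scramble library, 1003. The mean of Gbp10 rose from 780 ± 260 to 2805 ± 624 (SD, n = 3 each), with a log2 fold change of 1.85 (SE 0.30, adjusted p = 0.0322, edgeR).

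Gbp6 had normalized counts of 772.6, 369.9 and 570.8 in scramble and of 1923, 2169 and 1293 in knockdown. Its groups did not overlap either, and in both groups replicate 2 was at an extreme, as for Gbp10. The log2 fold change of Gbp6 was 1.65 (SE 0.34), just outside the threshold (adjusted p = 0.0560, edgeR; 0.000249 in DESeq2).

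Gbp9 had normalized counts of 270.9, 250.3 and 236.5 in scramble and of 998.5, 765.0 and 439.3 in knockdown. Its scramble libraries were close together, and its knockdown libraries ranked as those of Gbp3 and Gbp7 did. The mean of Gbp9 rose from 253 ± 17.3 to 734 ± 281 (SD, n = 3 each), with a log2 fold change of 1.54 (SE 0.31, adjusted p = 0.0450, edgeR).

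Gbp4 and Gbp8, which overlap Gbp9 in the annotation, were not called. Gbp4 had normalized counts of 197.0, 200.9 and 202.4 in scramble and of 159.3, 231.9 and 177.5 in knockdown, with a log2 fold change of -0.078 (SE 0.15, adjusted p = 0.798, edgeR). Its scramble libraries were within a few counts of each other, and knockdown libraries lay on both sides of them. The direction for Gbp4 turned with spike-in scaling (log2 fold change 0.12) and without knockdown replicate 1 (0.024). Gbp8 had normalized counts of 66.69, 59.27 and 95.68 in scramble and of 103.0, 114.0 and 78.80 in knockdown, with overlapping groups and a log2 fold change of 0.42 (SE 0.22, adjusted p = 0.287, edgeR).

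Gbp11 had normalized counts of 213.4, 116.4 and 163.9 in scramble and of 256.5, 738.4 and 920.2 in knockdown. Knockdown replicate 1 was only slightly above the highest scramble library, and replicates 2 and 3 were far above it. The log2 fold change of Gbp11 was the largest of the members, 1.95, with the largest error (SE 0.57, adjusted p = 0.137, edgeR). It was called by DESeq2 (adjusted p = 0.0136) and by edgeR without knockdown replicate 1 (adjusted p = 0.00479). Gbp11 was not called in the other fits with 1 library left out (adjusted p = 0.230 to 0.335, edgeR). Of 9 other settings on all libraries, DESeq2 among them, 2 called it. Gbp11 is among the genes that the study drew in a heatmap chosen on these same libraries, so it is not an independent pick.

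**Figure D2:**
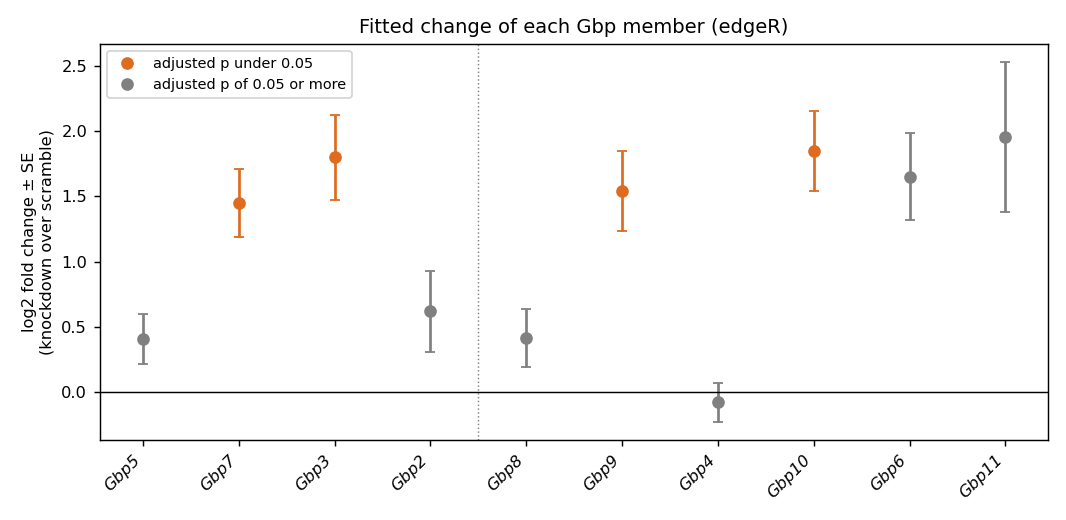
Fitted log2 fold change of each Gbp member, knockdown over scramble, with the standard error from edgeR as bars. Orange marks the 4 members with an adjusted p under 0.05 and grey the other 6; Gbp11 has the largest value and the widest error, and Gbp4 sits at -0.078.

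Calls changed when single libraries were left out. Members called higher numbered 2 without scramble replicate 1 (Gbp6 and Gbp10), 1 without scramble replicate 2 (Gbp10) and 4 without knockdown replicate 1 (Gbp3, Gbp7, Gbp9 and Gbp11). They numbered 6 without knockdown replicate 3 (Gbp2, Gbp3, Gbp6, Gbp7, Gbp9 and Gbp10) and 0 in edgeR without knockdown replicate 2 or without replicate 3 of scramble, where 5 and 6 members were higher at an unadjusted p under 0.05. On all libraries, 12% of genes tested were higher at that unadjusted p. Calls over all genes moved as well, from 505 of 16327 called higher on all libraries. Without scramble replicates 1, 2 and 3 there were 268, 169 and 38. Without knockdown replicates 1, 2 and 3 there were 293, 140 and 1015, with 16649 to 16837 genes tested in each fit. Over these 6 fits the log2 fold changes of the called members stayed at 1.18 to 1.67 for Gbp7, 1.52 to 2.07 for Gbp3, 1.24 to 1.81 for Gbp9 and 1.60 to 2.07 for Gbp10. On all libraries DESeq2 called 6 members, against 3.57% of all genes it tested, and limma voom 5, against 435 of 16327 genes called higher.

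The knockdown libraries did not rank the members alike. Relative to the scramble mean, Gbp3 stood at 4.68, 3.72 and 2.05 in knockdown replicates 1 to 3, Gbp9 at 3.95, 3.03 and 1.74, Gbp7 at 3.61, 2.76 and 1.81 and Gbp2 at 2.10, 1.59 and 0.916. These 4 were highest in replicate 1. Gbp10, at 3.27, 4.51 and 3.01, and Gbp6, at 3.37, 3.80 and 2.26, were highest in replicate 2, as were Gbp4, Gbp5 and Gbp8. Gbp11 stood apart at 1.56, 4.49 and 5.59, highest where Gbp2, Gbp3, Gbp7 and Gbp9 were lowest. Differences in rank between members were not tested.

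**Figure D3:**
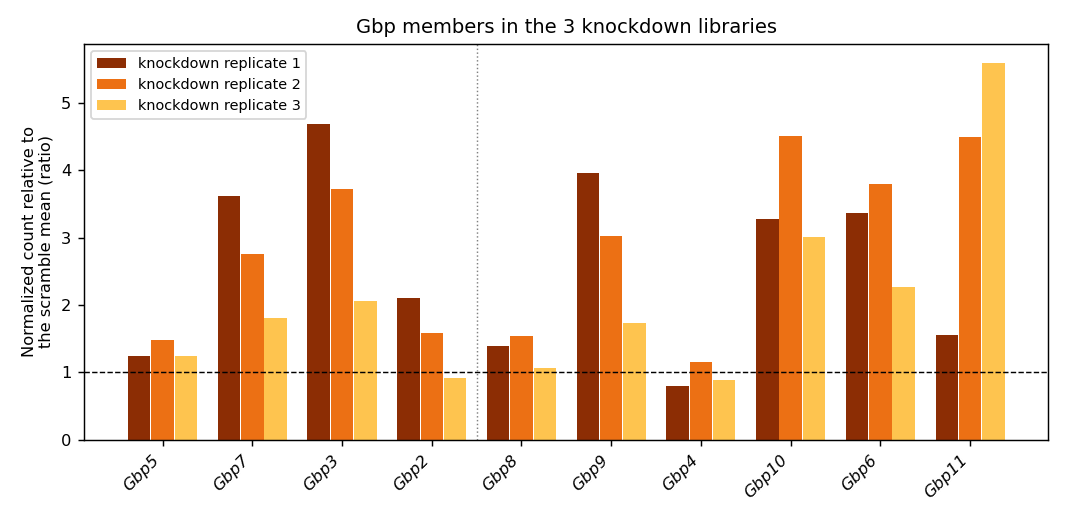
Normalized count of each Gbp member in the 3 knockdown libraries, as a ratio to the mean of the 3 scramble libraries (linear axis, dashed line at 1). Gbp3, Gbp7 and Gbp9 are highest in replicate 1 and lowest in replicate 3, while Gbp11 stands at 1.56 in replicate 1 and 5.59 in replicate 3.

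Levels between genes were compared in the authors' TPM, which is per transcript length. In scramble liver the order was Gbp10 (28.9 ± 9.78 TPM), Gbp6 (15.4 ± 5.42 TPM), Gbp7 (12.0 ± 1.73 TPM), Gbp11 (7.92 ± 2.34 TPM), Gbp2 (6.89 ± 1.61 TPM), Gbp9 (5.20 ± 0.278 TPM), Gbp4 (4.98 ± 0.193 TPM), Gbp3 (4.18 ± 0.879 TPM), Gbp5 (2.64 ± 0.360 TPM) and Gbp8 (2.20 ± 0.642 TPM; SD, n = 3). Neighbours in this order overlapped over libraries, except Gbp3 and Gbp5. In knockdown liver Gbp10 (98.0 ± 20.2 TPM) and Gbp6 (45.8 ± 11.6 TPM) still led, followed by Gbp7 (31.2 ± 11.2 TPM), Gbp11 (28.8 ± 15.0 TPM), Gbp9 (14.5 ± 5.91 TPM), Gbp3 (13.8 ± 5.63 TPM) and Gbp2 (10.1 ± 4.17 TPM). Gbp4 (4.46 ± 0.777 TPM), Gbp5 (3.31 ± 0.277 TPM) and Gbp8 (2.77 ± 0.517 TPM; SD, n = 3) were last. There the ranges of Gbp10 and Gbp6, of Gbp2 and Gbp4 and of Gbp4 and Gbp5 did not overlap.

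Summed over the 10 members, the TPM of the family was 104.5, 67.56 and 98.63 in scramble and 262.3, 289.0 and 206.7 in knockdown replicates 1 to 3. The chromosome 3 members went from a summed TPM of 25.7 ± 3.38 to 58.4 ± 21.1 and the chromosome 5 members from 64.5 ± 17.9 to 194 ± 31.9 (SD, n = 3). Knockdown replicate 1 was highest of its group for the sum on chromosome 3 and replicate 2 for that on chromosome 5. Gbp6, Gbp10 and Gbp11 together made 49.0% to 64.4% of the summed TPM in scramble and 59.4% to 74.9% in knockdown, ranges that overlap. The Gbp9 to Gbp4 ratio of TPM was 0.968 to 1.14 in scramble and 2.05 to 5.19 in knockdown, and the Gbp3 to Gbp2 ratio 0.441 to 0.855 and 1.35 to 1.41. Both ratios set a member that rose over one that was not called, so their separation restates the changes above. The Gbp10 to Gbp6 ratio, 1.79 to 2.02 and 1.82 to 2.50, overlapped between groups, as did the Gbp11 to Gbp10 ratio, 0.254 to 0.306 and 0.131 to 0.510.

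Genes that carry the interferon signal to the Gbp genes moved in part. Of 14 such genes tested, 2 were called higher and 0 lower in edgeR (0 lower in DESeq2, and 0 lower at an unadjusted p under 0.05), with a median log2 fold change of 0.13. Over all genes tested in edgeR, 3.09% were called higher and 3.23% lower. Ifngr2, a chain of the interferon gamma receptor, had normalized counts of 230.8, 285.4 and 236.5 in scramble and of 520.7, 520.7 and 333.3 in knockdown, groups that did not overlap. It rose by 0.87 on the log2 scale (adjusted p = 0.0233, edgeR) and Irf9, which binds DNA in the complex that type I interferon activates, by 0.56 (adjusted p = 0.0217, edgeR). Irf1, a transcription factor needed for full Gbp induction, had a log2 fold change of 0.077 (adjusted p = 0.762, edgeR). Raw counts of Ifng itself were 0 to 4 a library, too few to test. The list had 1 call without replicate 1 or 2 of scramble or replicate 1 of knockdown, and 0 in edgeR without replicate 3 of scramble or replicate 2 of knockdown, against 3 in DESeq2 and 5 at an unadjusted p under 0.05 on all libraries.

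The p47 GTPases are the partners of GBPs on vacuoles. Of 8 tested, 6 were called higher in edgeR, against 3.09% of all genes tested, and 7 had groups apart, against 15.2%. The median log2 fold change was 1.70. Among the regulators of the group, Irgm1 rose by 1.58 (adjusted p = 0.0458), Irgm2 by 1.34 (adjusted p = 0.00272) and Igtp by 1.76 on the log2 scale (adjusted p = 0.0229, edgeR). Among the effectors, Iigp1 rose by 1.65 (adjusted p = 0.0188), Ifi47 by 2.35 (adjusted p = 0.0336) and Gm12250 by 2.88 on the log2 scale (adjusted p = 0.0176, edgeR). Tgtp1 and Tgtp2, near-identical copies whose reads may be split, had log2 fold changes of 3.21 and 0.62 and were not called (adjusted p = 0.0827 and 0.116, edgeR). Leaving out knockdown replicate 2, or replicate 2 or 3 of scramble, left 1 call in the list, leaving out replicate 1 of scramble 2 and of knockdown 3. The study also drew Igtp, Irgm2, Iigp1 and Gm12250 in its heatmap of genes from these libraries.

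Other genes known for induction by interferon gamma were divided. Of 13 tested, 6 were called higher in edgeR, against 3.09% of all genes tested, with a median log2 fold change of 0.43. In edgeR 0 were called lower, against 3.23% of genes, and 0 in DESeq2. At an unadjusted p under 0.05, 2 were lower. Those that rose serve antigen presentation on MHC class I or immune checkpoint signalling, namely Tap1 (1.17, adjusted p = 0.00286, edgeR), Tap2, the immunoproteasome genes Psmb8, Psmb9 and Psmb10, and Cd274. Nlrc5, the master regulator of the MHC class I genes, did not pass, with a log2 fold change of 0.43 (adjusted p = 0.0928, edgeR) and groups apart. The MHC class II genes did not pass. Ciita, their master regulator, had a log2 fold change of -0.61 (adjusted p = 0.0784, edgeR) with all knockdown libraries below all scramble libraries, and H2-Aa, H2-Ab1, H2-Eb1 and Cd74 were at -0.31 to -0.59. Cxcl9, a chemokine, was at -0.030. Without replicate 3 of scramble the list had 2 calls.

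Genes known mainly for type I interferon had the highest median of the lists. Of 14 tested, 8 were called higher in edgeR and 14 in DESeq2, against 3.09% and 3.57% of all genes tested. All 14 had groups apart, against 15.2% of genes, and the median log2 fold change was 2.63. Ifit1 rose by 3.55 (adjusted p = 0.0331) and Mx1 by 2.29 on the log2 scale (adjusted p = 0.00766, edgeR). The list had 3 calls without replicate 2 and 1 without replicate 3 of scramble, and 4 without replicate 1 and 2 without replicate 2 of knockdown. By library, the median log2 ratio to the scramble mean was 2.95, 2.78 and 1.95 in knockdown replicates 1 to 3 for this list, 2.07, 1.77 and 1.12 for the p47 GTPases and 1.39, 1.53 and 0.83 for the Gbp members. Replicate 3 was the lowest for each of the 3 lists, unlike for Gbp11. Differences between the lists were not tested.

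**Figure D4:**
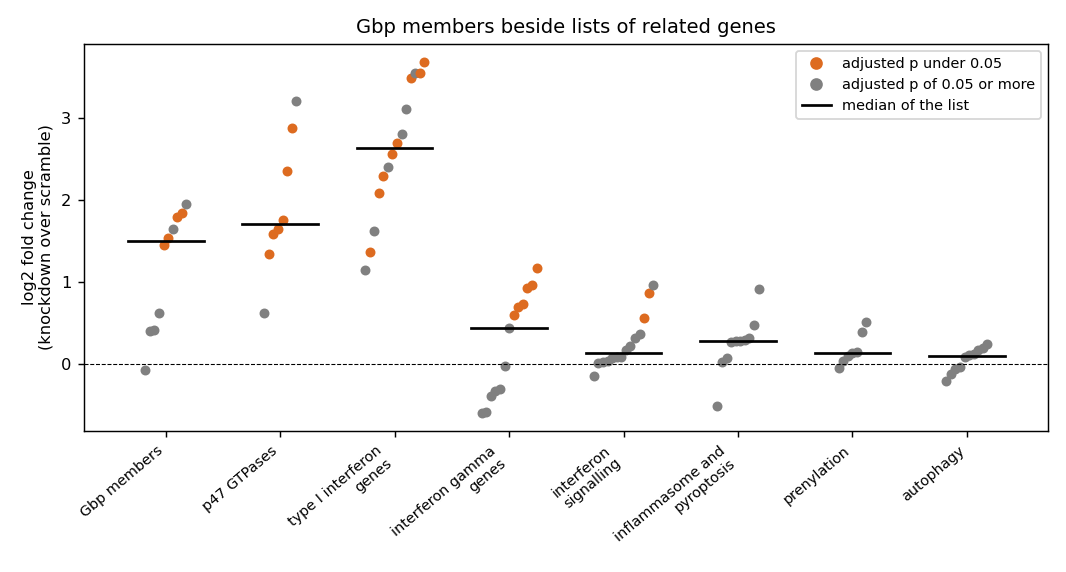
Fitted log2 fold changes (knockdown over scramble, edgeR) of the Gbp members and of lists of related genes, 1 point a gene, with the list median as a bar. Medians run from 2.63 for type I interferon genes over 1.70 for p47 GTPases and 1.49 for Gbp members down to 0.093 for autophagy genes, and orange marks an adjusted p under 0.05.

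Lists for inflammasomes, prenylation and autophagy were read next. Of 10 inflammasome and pyroptosis genes, 0 were called in edgeR or DESeq2, 2 were higher at an unadjusted p under 0.05, and the median log2 fold change was 0.27. Casp4, the caspase that GBPs help to activate on bacterial lipopolysaccharide, had a log2 fold change of 0.27 (SE 0.25, adjusted p = 0.551, edgeR), and Casp8 0.29 (SE 0.11, adjusted p = 0.129, edgeR). Il1b, the cytokine that inflammasome caspases cleave, had the largest log2 fold change of the list, 0.91 (SE 0.36, adjusted p = 0.151, edgeR), with normalized counts of 19.49, 31.83 and 29.70 in scramble and of 68.66, 26.61 and 57.06 in knockdown, which overlap. None of 7 genes for prenylation, which modifies Gbp2 and Gbp5, was called in edgeR or DESeq2 or passed at an unadjusted p under 0.05 (median 0.12). Of 10 autophagy genes that direct GBPs and p47 GTPases to vacuoles, 0 were called in edgeR or DESeq2, 1 being higher and 1 lower at an unadjusted p under 0.05 (median 0.093).

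Cell type markers were read beside these results. In bulk liver a change in the share of a cell type and a change in RNA per cell cannot be told apart. Hepatocyte markers were abundant in every library (summed normalized counts 1136073 to 1286388 in scramble and 1210794 to 1448485 in knockdown), as the labelled tissue has them. Alb made up most of this sum. Of the 6 hepatocyte markers Fgb was called higher (log2 fold change 1.11, adjusted p = 0.00682, edgeR), and Apoa1 (0.41, adjusted p = 0.0581) and Cps1 (0.19, adjusted p = 0.352, edgeR) had groups apart without a call. Kupffer cell and macrophage markers summed to 2913 to 3532 in scramble and 3714 to 4776 in knockdown, all 8 had a log2 fold change above 0 with a median of 0.43, and Adgre1 (0.41, adjusted p = 0.0485) and Clec4f (0.44, adjusted p = 0.0327, edgeR) were called. T and NK cell markers summed to 103 to 164 and 116 to 145, B cell markers to 49.5 to 54.4 and 44.8 to 65.6, and monocyte and neutrophil markers to 70.2 to 132 and 84.2 to 161. Of the neutrophil markers, Ly6g was at 0 in all libraries. S100a8 had normalized counts of 1.03, 1.10 and 2.20 in scramble and of 6.68, 10.5 and 3.62 in knockdown, and S100a9 of 2.05, 1.10 and 0 and of 11.4, 8.55 and 5.43. Both were below the filter and not tested, with raw counts of 1 to 11 and of 0 to 12 a library. For both, every knockdown library was above every scramble library, a pattern seen in 15.2% of genes tested. The 3 tested markers of this list, Ly6c2, Ccr2 and Itgam, had overlapping groups and were not called in edgeR. Their log2 fold changes were 0.69, -0.072 and 0.56. Sinusoidal endothelial markers summed to 4772 to 5121 and 4386 to 4934. The part of Kupffer cells and neutrophils in the Gbp result was not tested.

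Genes beside the clusters did not pass the test. The chromosome 3 cluster was taken to end with the pseudogene Gbp2-ps, which lies past Gbp2. Kyat3, 31978 bases from Gbp2-ps, had a log2 fold change of 0.12 (adjusted p = 0.574, edgeR) and Pdlim5, on the other side, one of -0.12. Gtf2b, 96206 bases from Gbp2-ps, had groups apart and a log2 fold change of 0.47 (SE 0.13, adjusted p = 0.0555, edgeR). On chromosome 5 Abcg3, 31339 bases away, had a log2 fold change of -0.28 (adjusted p = 0.402, edgeR) and Lrrc8b, 68734 bases away on the other side, 0.24 (adjusted p = 0.538, edgeR). Of 12 neighbours looked up, 8 were tested and their adjusted p ranged from 0.0555 upward.

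The genes whose course over the 6 libraries was nearest to the mean course of the members were searched among 11771 genes with a mean of at least 50 counts, by the root mean square distance of centred log2 CPM. They were Rbm43 (distance 0.0728), Znfx1 (0.0946), Ang (0.0970), Trim12a (0.115) and Fgb (0.118), the last a fibrinogen chain made by hepatocytes. Rbm43 had normalized counts of 58.48, 47.20 and 57.19 in scramble and of 132.6, 136.8 and 87.86 in knockdown. These genes were picked by their values and get no test. Members were themselves further from their own mean, at 0.242 (Gbp7) to 0.738 (Gbp11).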

How the data were processed

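RNA-seq libraries of 6 mouse livers were grouped by their labels. Per the paper's methods, the authors trimmed reads with Trimmomatic, used STAR for alignment and featureCounts for exonic reads that mapped uniquely; the deposited counts are whole reads per gene, not normalized. The methods name GRCm38 and the labels GRCm39, the files hold no coordinates, and the annotation release and strand setting are not given in the sources used here. Reads of overlapping genes may therefore be mixed. The labels give ribosomal RNA depletion and the methods a poly(A) kit. The authors deposited TPM, whose computation is not described. Their normalized counts are a signal, the deposited raw counts divided by 1 factor a library. The authors' own test results (log2 fold changes, p-values) were also deposited and were not used.

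Raw counts were tested with edgeR 4.0.16 (quasi-likelihood, robust, TMM scaling, filterByExpr, Benjamini-Hochberg over 16327 genes; 92 spike-in rows left out; called at 0.05), with DESeq2 1.42.0 and limma 3.58.1 as alternatives in R 4.3.3. Normalized counts in the report are counts over TMM-scaled library sizes. limma on log2 values used a pseudocount of 1 for the authors' normalized counts and of 0.1 or 1 for TPM. An exact permutation test of 3 against 3 libraries cannot go below 0.1. On simulated data, 83.5% of 200 genes with a true log2 change of 1 were called, and 6.18% of calls were unchanged genes. The simulation gave every gene the same variation between mice. Its rates may therefore not hold for more variable genes. Among these are Gbp11 (SE 0.57) and the called members Gbp3, Gbp7, Gbp9 and Gbp10 (SE 0.26 to 0.32). Depth limits precision by counting error only for low genes; members had 48 raw counts or more in every library. Coding sequences came from GENCODE M21 transcripts. Identities are from global pairwise alignments with Biopython 1.88, and the stretch shown for Gbp6, Gbp10 and Gbp11 was aligned with MAFFT 7.526.

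Members, lists and tests were chosen with earlier results of these data known, and list counts under the alternatives were added after seeing the data. Named genes were all members, Hnf1aos1, genes of the lists, the 3 nearest protein-coding neighbours on each side of a cluster and the 5 genes nearest in course. Same-numbered libraries deviated from their group means with correlations of -0.023, 0.023 and 0.0032, so numbers were not taken to pair mice. Such correlations cannot exclude that same-numbered mice were handled together. A gene of the signalling list is not reported here.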

Additional observations from a re-analysis of the deposited data

How the results depend on the processing

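Of 180 values of single members under the alternatives, 142 kept direction and side of the threshold, 23 lost and 13 gained the call, and 2 turned direction, both for Gbp4 (log2 fold change 0.12 with spike-in sizes and -0.24 to 0.024 with 1 library left out, positive without knockdown replicate 1). Members called higher (4) were 0 with no filter on low counts, where 7 passed at an unadjusted p under 0.05, and 0 to 6 when 1 library was left out; DESeq2 gave 6, spike-in sizes 6, library totals 3 and limma voom 5. With the replicate number as a block there were 3 (Gbp10 lost, adjusted p = 0.0905, edgeR) and 429 higher and 449 lower of all genes, against 505 and 527; 2 of 6 libraries correlated best with their own number. All genes called higher were 319 with library totals, 3030 with spike-in sizes, 870 with no filter, 128 past a log2 fold change of 1 and 38 to 1015 with 1 library left out. All genes called lower were 1032 with no filter, 224 past the limit and 65 to 866 with 1 library left out. Signalling genes called higher (2) were 5 with spike-in sizes and 0 to 3 with 1 library left out. For p47 GTPases (6) the counts were 3 with no filter and 1 to 8, for interferon gamma genes (6) 2 to 6. For type I genes (8) they were 14 with DESeq2, spike-in sizes, voom or edgeR without robust estimation, 5 with no filter and 1 to 12. Fits with 1 library left out have fewer degrees of freedom, and the unfiltered fit tested more genes. Whether either moved these counts was not tested.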
